A study of Mus musculus with 22 samples.

Results

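Sprr1a, Sprr1b, Sprr2d and Sprr3 are 4 small proline rich protein genes, chosen by name from the 17541 genes of the count files, which list 11 further genes whose symbols begin with Sprr. Their UMI counts (unique molecular identifiers, 1 for each captured transcript molecule) were followed in mouse esophageal epithelium by mouse, by stage of differentiation and by cell cluster. Small proline rich proteins are structural proteins of the cornified envelope, the layer of cross-linked protein that replaces the cell membrane of squamous cells as they reach the surface. Transglutaminases join them to loricrin, involucrin and to one another through glutamine and lysine residues, and the proline repeats between these ends act as flexible bridges. In stratified epithelia the genes are switched on late in differentiation, and several of them are also known as genes of wounded, inflamed or transformed epithelium.

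All mice were C57BL6, and the labels name no transgene or deletion. The 6 controls were untreated, 3 of them young (3 to 4 months; mice 1, 2 and 6) and 3 old (18 to 20 months; mice 3, 4 and 5). The 4 mice with EoE (eosinophilic esophagitis) had received MC903, a vitamin D analog, on scraped ears together with ovalbumin (OVA), followed by oral OVA up to day 32; mice 9 and 10 were young (6 to 8 weeks) and mice 11 and 12 old (19 to 20 months). The 3 mice with ESCC (esophageal squamous cell carcinoma; mice 8M, 17F and 17M) drank the carcinogen 4NQO for 16 weeks and were examined 8 weeks later, at 8 to 10 months. No control group received MC903 alone, and no control mouse was of the age of the ESCC mice, so that the allergen cannot be told apart from MC903, nor ESCC from that age. By the ages given, the young EoE mice (6 to 8 weeks) were also younger than the young controls (3 to 4 months). In these mice EoE can thus not be told apart from that age difference. The epithelium was peeled off and dissociated, and 5 listed eosinophil and mast cell genes had no UMI in any group.

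Control and ESCC mice gave 2 inDrop libraries each and EoE mice 1, and the files hold 1500 cells per condition. Within the limits of 250 to 3500 genes and 100 to 9500 UMIs, and without cells holding 3 or more UMIs of non-epithelial markers and more of these than of epithelial ones, 1493 control, 143 EoE and 1474 ESCC cells remained. Among the ESCC cells kept, a cluster of 14 cells was still led by macrophage genes (Cd74, Csf1r, Lyz2 and C1qa), and it held 1.43% of the Sprr2d UMIs and 0.491% or less of those of the other 3 genes. A mouse held between 111043 and 427752 UMIs in controls, between 6245 and 41909 in EoE and between 1240388 and 2105104 in ESCC, with 11 to 57 cells per EoE mouse. Of the barcodes, 239 occurred in both libraries of the same mouse, from 4 in mouse 3 to 52 in mouse 17M. Only these shared barcodes were compared, and in each of the 239 cases the cell's best match among them in the other library was its own barcode. The mean correlation by mouse ran from 0.624 to 0.861 for the same barcode, against 0.254 to 0.472 for other shared barcodes. Both libraries were therefore summed by mouse, and the mouse is the replicate throughout. With each barcode counted once, the log2 fold changes of Sprr1a were 2.23 (EoE versus control) and -1.78 (ESCC versus control), and no call on the 4 genes changed.

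The 4 genes lie on chromosome 3 (GRCm38), in a cluster of 17 annotated Sprr genes that spans 92215799 to 92500493. Sprr2d (ENSMUSG00000042212) is on the plus strand from 92339140 to 92340873. On the minus strand, Sprr1b (ENSMUSG00000048455) runs from 92436809 to 92438789, Sprr3 (ENSMUSG00000045539) from 92456502 to 92458720 and Sprr1a (ENSMUSG00000050359) from 92483952 to 92485895. Each has 2 exons, with the whole coding sequence in the second. To show the repeat for which the family is named, the 81 coding bases of each gene richest in proline codons are given below from GRCm38 with the GENCODE annotation, 5′ to 3′ on the coding strand, with every proline codon (CCN) in capitals.
Sprr1a (chr3:92484543-92484623, minus strand): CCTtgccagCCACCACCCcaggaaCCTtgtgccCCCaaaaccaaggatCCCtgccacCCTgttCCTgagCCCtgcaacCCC
Sprr1b (chr3:92437352-92437432, minus strand): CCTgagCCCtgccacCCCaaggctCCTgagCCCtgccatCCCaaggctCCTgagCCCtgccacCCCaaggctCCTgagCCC
Sprr2d (chr3:92340356-92340436, plus strand): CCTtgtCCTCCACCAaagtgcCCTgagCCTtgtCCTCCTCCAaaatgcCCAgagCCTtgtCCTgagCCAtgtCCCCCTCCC
Sprr3 (chr3:92457431-92457511, minus strand): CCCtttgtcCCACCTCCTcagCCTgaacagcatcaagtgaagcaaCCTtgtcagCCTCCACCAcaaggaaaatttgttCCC
These windows held 11, 11, 16 and 10 proline codons of 27 in Sprr1a, Sprr1b, Sprr2d and Sprr3. Over the whole coding sequence, proline codons made up 31.9% of 144 codons in Sprr1a, 30.7% of 153 in Sprr1b, 41.2% of 85 in Sprr2d and 20.6% of 238 in Sprr3. Sprr2d was thus the shortest and the richest in proline, and Sprr3 the longest and the poorest. Because inDrop counts molecules from the 3′ end, copies of a transcript end matter for these genes. Among the 31-base words of the last 400 transcript bases, none was shared with another gene in Sprr1a, Sprr1b and Sprr3, and 8 of 370 were shared with Sprr2e in Sprr2d, whereas Sprr2a1 and Sprr2a2 shared all of theirs and their counts are uncertain.

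The bases before the transcription start are shown because the 4 genes moved together in some comparisons and apart in others. All 4 genes had an entry in the RefSeq promoter table (GRCm38.p6). The sequences run from 250 to 21 bases before the start, 5′ to 3′ on the strand of the gene. Capitals mark TGANTCA, the word bound by AP-1 (dimers of Fos and Jun proteins), and TATAAA, the TATA box, each searched on both strands.
Sprr1a (chr3:92485902-92486131, minus strand): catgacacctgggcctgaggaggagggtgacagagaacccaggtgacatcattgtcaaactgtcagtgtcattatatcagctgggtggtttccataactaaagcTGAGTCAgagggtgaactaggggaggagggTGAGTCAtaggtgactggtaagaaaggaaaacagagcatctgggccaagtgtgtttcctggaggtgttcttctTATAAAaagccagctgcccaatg
Sprr1b (chr3:92438800-92439029, minus strand): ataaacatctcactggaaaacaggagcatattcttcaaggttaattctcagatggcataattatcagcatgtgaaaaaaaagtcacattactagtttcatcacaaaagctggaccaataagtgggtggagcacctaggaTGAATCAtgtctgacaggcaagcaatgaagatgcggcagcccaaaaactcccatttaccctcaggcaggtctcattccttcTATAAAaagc
Sprr2d (chr3:92338890-92339119, plus strand): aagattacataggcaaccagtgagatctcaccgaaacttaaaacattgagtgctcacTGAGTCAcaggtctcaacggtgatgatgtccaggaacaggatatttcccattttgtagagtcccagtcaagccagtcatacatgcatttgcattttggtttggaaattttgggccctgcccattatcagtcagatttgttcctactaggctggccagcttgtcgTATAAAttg
Sprr3 (chr3:92458741-92458970, minus strand): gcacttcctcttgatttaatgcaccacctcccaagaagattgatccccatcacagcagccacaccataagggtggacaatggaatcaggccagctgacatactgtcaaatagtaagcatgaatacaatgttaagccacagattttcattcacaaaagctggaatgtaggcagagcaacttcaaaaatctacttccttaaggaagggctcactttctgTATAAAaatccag
TGANTCA stood 146 and 116 bases before the start of Sprr1a, 111 before that of Sprr1b and 193 before that of Sprr2d, and was not found in this window of Sprr3. TATAAA stood 43, 30, 29 and 33 bases before the starts of Sprr1a, Sprr1b, Sprr2d and Sprr3. Of 32851 promoter windows of this length, 6.34% held TGANTCA, 11.8% held TATAAA and 1.07% held both, against 9, 10 and 9 of the 14 Sprr promoters in the table. A match describes the letters and is not evidence of binding.

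In control epithelium, Sprr3 was the most abundant of the 4 genes, Sprr1a came next, Sprr1b was lower and Sprr2d was nearly absent. Levels per mouse are given as CPM, UMIs per 1000000 UMIs of the mouse after TMM scaling in edgeR. A UMI counts a molecule whatever its length, so that these values may be set side by side between genes. Sprr3 ranged from 46.8 to 2942 CPM over the 6 controls with a median of 1674. Sprr1a ranged from 14.7 to 549 CPM (median 360) and Sprr1b from 0 to 232 CPM (median 70.0). The spread lay between mice: mice 2 and 3 were lowest for each of these 3 genes, with Sprr3 at 259 and 46.8 CPM against 1571 or more in the other 4. Sprr2d had a single UMI in the 1744511 UMIs of the controls, in mouse 6.
The make-up was steadier than the level. Sprr3 gave from 71.4% to 89.8% of the UMIs of the 4 genes in each control mouse, where the lowest share, in mouse 3, rests on 7 UMIs in all.

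**Figure D1:**
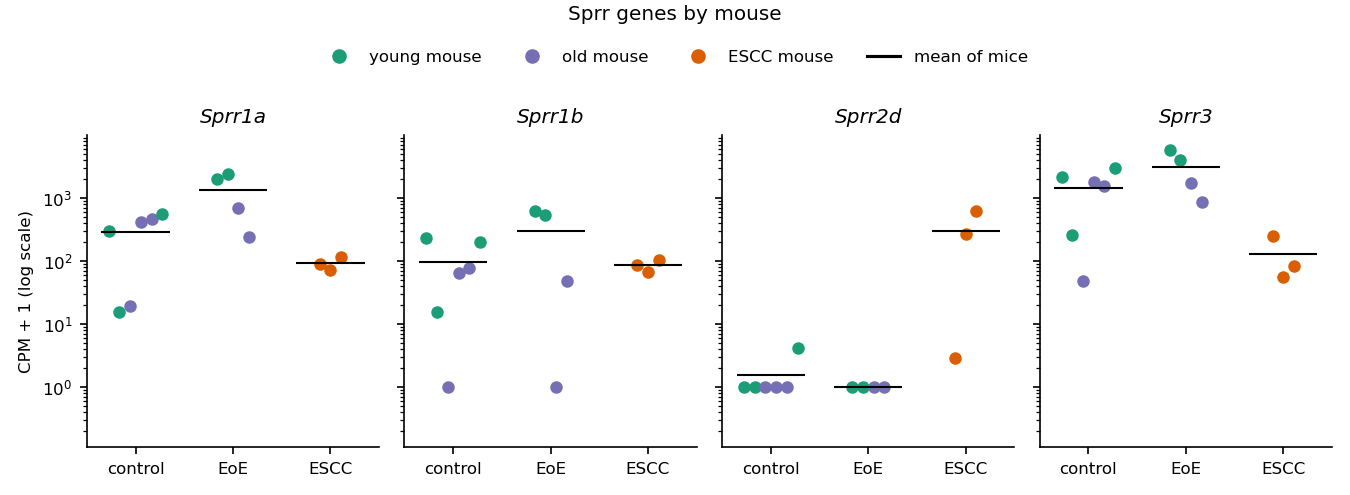
CPM plus 1 (log scale) of each gene in each mouse of the control, EoE and ESCC groups, with the mean of the mice as a line. Sprr1a and Sprr3 were higher in all 4 EoE mice than in any ESCC mouse, and Sprr2d stood above 200 CPM in 2 of 3 ESCC mice alone.

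Sprr1a, Sprr1b and Sprr3 were carried by the most differentiated control cells. Control cells were clustered with all Sprr genes left out, and clusters were ordered by Krtdap, a gene of differentiating keratinocytes, against Krt5, a basal keratin. The study's strip is the zone in which the log10 levels of the pair lie within 0.3 of each other. Clusters 1 and 2 lay below it (basal), cluster 3 within it (suprabasal) and clusters 4 and 5 above it. Each cell of every group, controls included, took the most frequent class among its 15 nearest control cells of other mice. The class of a control cell could thus differ from that of its own cluster. Cluster 5 (174 of 1493 cells, led by Crct1, Slpi, Lypd5, Defb4 and Cnfn) held 16.8% of all control UMIs but 91.3% of those of Sprr1a, 96.0% of those of Sprr1b and 94.97% of those of Sprr3. Cluster 4 (319 cells, led by Elf5 and Smtnl2) held 23.5% of all UMIs but 8.03%, 3.47% and 3.07% of theirs. Within the class above the strip, the genes thus lay at its far end. Clusters come from the same cells, so these shares are a description with no test.
Pooled Sprr3 levels were 63.4, 18.1, 79.3, 222 and 9606 CPM in clusters 1 to 5. Those of Sprr1a were 2.05, 0, 10.8, 115 and 1822 CPM. Sprr1b had 2.05 CPM in cluster 1, none in clusters 2 and 3, 17.1 CPM in cluster 4 and 662 CPM in cluster 5.
Sprr1a and Sprr3 thus had transcripts in cluster 4 in 5 of 6 mice each, whereas the 7 Sprr1b UMIs of cluster 4 came from mouse 1 alone.
In the 4 control mice with at least 10 cells in cluster 5 (1, 4, 5 and 6), Sprr3 stood at 8772, 9653, 9468 and 12394 CPM there. Sprr1a stood at 1208, 2335, 2511 and 2152 CPM, and Sprr1b at 893, 392, 484 and 836 CPM. Mouse 1 was lowest for Sprr1a and highest for Sprr1b, so that the ratio of the paired genes was not fixed. Mice 2 and 3, which had the lowest levels over all cells, had 9 and 2 cells in cluster 5 (4.59% and 2.86% of their cells, against 9.29% to 18.4% in the others). The part of this share in their low levels was not tested.

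**Figure D2:**
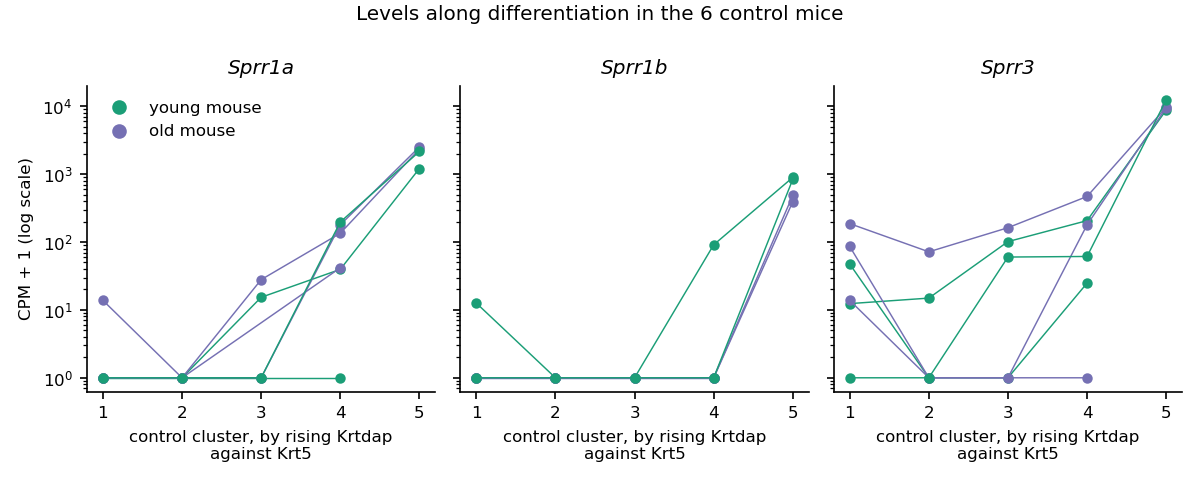
CPM plus 1 (log scale) of Sprr1a, Sprr1b and Sprr3 in control clusters 1 to 5, ordered by rising Krtdap against Krt5, with 1 line for each control mouse and only clusters of at least 10 cells. Each gene was higher in cluster 5 than in cluster 4 in the 4 mice with at least 10 cells in both, and Sprr1b was at 0 in cluster 4 in all mice but mouse 1.

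The transcripts were also unevenly spread over cells. Of the 1493 control cells, the 75 highest (5%) held 88.5% of Sprr1a and 83.0% of Sprr3 UMIs, and 1 cell held 88 UMIs of Sprr3. After each cell was thinned to 500 UMIs, 32.8% of control cells above the strip had a Sprr3 UMI (38.1% unthinned), 15.5% a Sprr1a UMI (25.8%) and 8.06% a Sprr1b UMI (13.8%). In the basal class, taken as the background of free RNA, the thinned shares were 3.14%, 0.273% and 0.137% (median depth 951 UMIs before thinning, against 1217 above the strip). The shares above the strip exceeded this background for all 3 genes.
Cells with 1 of the genes mostly had Sprr3 too. Of the 42 thinned control cells above the strip with a Sprr1b UMI, 95.2% had a Sprr3 UMI, and of the 81 with a Sprr1a UMI, 77.8% had one, against 24.5% of the cells without Sprr1a. Sprr1b was thus seen mainly within Sprr3-positive cells, while some Sprr1a cells had no Sprr3 UMI at this depth.

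In EoE, Sprr1a and Sprr1b were higher than in controls, and Sprr2d was not detected. Sprr1a stood at 2014 and 2383 CPM in the young mice 9 and 10 and at 700.2 and 239 CPM in the old mice 11 and 12. The mean was 1334 ± 1027 CPM (SD, n = 4), against 293 ± 228 CPM in controls (SD, n = 6), and 3 of the 4 EoE mice lay above every control. The log2 fold change was 2.26 ± 0.48 (SE; edgeR quasi-likelihood test, Benjamini-Hochberg adjusted p = 0.000637), while the median over all 5867 genes tested was -0.75.
Sprr1b stood at 610.2, 537, 0 and 47.7 CPM in mice 9, 10, 11 and 12. The young EoE mice lay above all controls. The old ones held 0 and 1 UMI, where 3 UMIs make 300 and 143 CPM, so that their place among the controls is uncertain. Its log2 fold change was 1.81 ± 0.60 (SE; edgeR adjusted p = 0.0193).
Sprr3 stood at 5827, 3972, 1701 and 859 CPM in the same order, with 2 of 4 mice above every control. Its log2 fold change was 1.13 ± 0.54 (SE; edgeR adjusted p = 0.104) and did not pass the test. In this comparison 34.6% of all genes passed the test, 9.46% in the direction higher in EoE and 2 of the 3 tested members among them.
These values rest on few cells. In mouse 9, 1 cell held 37 of 66 Sprr1a UMIs, and in mouse 10, 1 cell held 50 of 102. Without the highest cell of each mouse, Sprr1a stood at 1011, 1341, 365 and 230.1 CPM (without TMM scaling) in mice 9 to 12 and between 4.93 and 457 CPM in controls, so that 2 of 4 EoE mice then lay above every control.
When all deposited cells were used, most of which lie below the limits (median 138 UMIs per EoE cell), the log2 fold changes were 1.12 for Sprr1a (edgeR adjusted p = 0.103), 0.65 for Sprr1b (0.399) and -0.029 for Sprr3 (0.972), and none of the 3 passed. With DESeq2 the adjusted p was 0.0682 for Sprr1a and 0.254 for Sprr1b, and without mouse 9 or mouse 10 Sprr1b no longer passed in edgeR, at log2 fold changes of 1.37 to 2.25 over all mice left out in turn.

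In EoE cells, all 180 Sprr1a, 44 Sprr1b and 396 Sprr3 UMIs lay above the strip, in 85 cells that held 76.0% of the UMIs. None lay in the 33 basal or 25 suprabasal cells. The EoE cells used were mostly of this class: 65.8 ± 17.0% per mouse (SD, n = 4), against 32.7 ± 9.84% in controls (SD, n = 6) and 14.2 ± 3.68% in ESCC (SD, n = 3), whereas 11.3% of all deposited EoE cells were. In a mouse as a whole, more cells of a class and more RNA per cell cannot be told apart, and the levels were therefore also compared within the class. The class was itself built from control clusters 4 and 5, with pooled Sprr3 at 222 and 9606 CPM. Within it, a shift between earlier and later cells can thus still not be told apart from a change per cell.
Within it, Sprr1a stood at 2701, 3215, 1186 and 404 CPM of the class's UMIs in EoE mice 9 to 12. Controls ranged from 52.1 to 1048 CPM (median 758), so that 3 of 4 EoE mice lay above all of them. The log2 fold change was 1.37 ± 0.42 (SE; edgeR adjusted p = 0.0100), where 36% of 3237 genes tested passed, 10.7% as higher in EoE.
Within the class Sprr3 ranged from 1456 to 7818 CPM in EoE and from 31.6 to 5602 CPM in controls. The ranges overlapped, and its log2 fold change was 0.30 ± 0.48 (SE; edgeR adjusted p = 0.657). Sprr1b, between 0 and 819 CPM in EoE and between 0 and 485 CPM in controls, gave 0.93 ± 0.49 (SE; edgeR adjusted p = 0.141). Sprr1a no longer passed within the class with DESeq2 (adjusted p = 0.213) or without mouse 9 or mouse 10 (edgeR adjusted p up to 0.188, log2 fold changes from 0.90 to 1.73), and Sprr1b passed without control mouse 1 or EoE mouse 12 (log2 fold changes from 0.56 to 1.44).
Thinned to 500 UMIs, 30.9% of 68 EoE cells above the strip had a Sprr1a UMI (exact 95% interval 20.2% to 43.3%), 16.2% a Sprr1b UMI and 45.6% a Sprr3 UMI, with 17 shallower cells left out (unthinned 35.3%, 18.8% and 49.4%, median depth of the thinned cells 757.5 UMIs). These intervals and all floors cover counting error only. For Sprr1a, controls gave 15.5% (interval 12.5% to 18.9%). At 250 UMIs, with no cell left out, EoE gave 21.2% (13.1% to 31.4%) and controls 10.6% (8.11% to 13.6%), and these intervals overlap. Cells of 1 mouse are not independent, so that the pooled shares are a description and no test between groups.

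**Figure D3:**
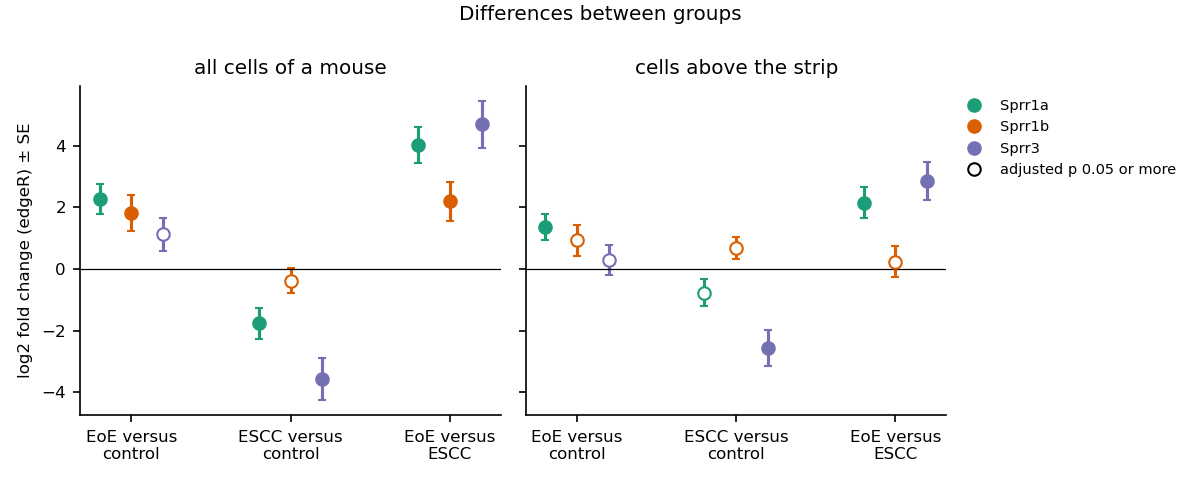
Log2 fold change with its SE (edgeR) of Sprr1a, Sprr1b and Sprr3 for the 3 comparisons, over all cells of a mouse (left) and over cells above the strip (right). Open points have an adjusted p of 0.05 or more. Sprr3 in EoE versus control went from 1.13 over all cells to 0.30 within the class, and in ESCC versus control from -3.56 to -2.56.

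In ESCC, Sprr3 and Sprr1a were lower than in controls, Sprr1b did not pass the test and Sprr2d stood above 200 CPM in 2 of 3 mice. The ESCC and EoE comparisons share the same 6 controls. Sprr3 stood at 247, 54.3 and 81.8 CPM in mice 8M, 17F and 17M, a mean of 128 ± 104 CPM (SD, n = 3) against 1461 ± 1118 CPM in controls (SD, n = 6). All 3 lay below the 4 higher controls and between control mice 3 and 2. The log2 fold change was -3.56 ± 0.69 (SE; edgeR adjusted p = 0.000143).
Sprr1a stood at 87.7, 70.9 and 117 CPM in mice 8M, 17F and 17M. They lay between the 2 lowest and the 4 higher controls, and the log2 fold change was -1.76 ± 0.50 (SE; edgeR adjusted p = 0.00619). Sprr1b stood at 86.7, 65.6 and 104 CPM, in the middle of the control range of 0 to 232 CPM. Its log2 fold change was -0.38 ± 0.41 (SE; edgeR adjusted p = 0.506). Of all genes, 34.6% passed in this comparison, 16.8% as lower in ESCC and 17.9% as higher, with a median of 0.01, and 2 of the 3 tested members were lower. With DESeq2 size factors the higher genes made up 63.3% of the calls in place of 51.6%. With DESeq2 the adjusted p of Sprr1a was 0.214.
Sprr2d, with 1 UMI in controls, 0 in EoE and 1538 in ESCC, did not pass the filter on low counts and was not tested. It stood at 1.95 CPM (2 UMIs) in mouse 8M, 268 CPM (405 UMIs) in mouse 17F and 629.6 CPM (1131 UMIs) in mouse 17M. Both libraries of a mouse were alike, with 0 and 2.81 CPM in 8M, 279 and 184 CPM in 17F and 504 and 563 CPM in 17M (without TMM scaling). Mouse 8M thus lay at the level of the controls and the other 2 apart from it.
Over pooled UMIs, the ratio of ESCC to control was 599 (95% counting interval 107 to 23677). For mouse 8M alone it was 3.29 (0.171 to 194), and the ratio of mice 17F and 17M to 8M was 238 (65.9 to 1970). Against EoE, where 3 UMIs over the group set a floor of 28.2 CPM, ESCC was at least 12.6-fold higher. At that depth a Sprr2d level such as that of mouse 8M or of the controls was not detectable in EoE.

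Placed in order, Sprr1a and Sprr3 ran from EoE over control to ESCC. The direct comparison of EoE with ESCC gave log2 fold changes of 4.02 ± 0.60 for Sprr1a (SE; edgeR adjusted p = 3e-06), 2.20 ± 0.62 for Sprr1b (0.00586) and 4.69 ± 0.76 for Sprr3 (1.2e-05), where 41.6% of all genes passed, 11.6% as higher in EoE and 29.9% as lower. All 4 EoE mice lay above all 3 ESCC mice for Sprr1a and Sprr3. How many of all genes separate these groups in this way was not counted. With all deposited cells (without TMM scaling), Sprr1a of mouse 12 stood at 69.5 CPM, within the ESCC range of 60.3 to 99.1 CPM, and Sprr3 stayed apart. For Sprr1b, mice 11 and 12 held 0 and 1 UMI. At their depth 3 UMIs make 300 and 143 CPM, above every ESCC mouse, so that their order against ESCC could not be seen. Sprr1b no longer passed with all deposited cells (log2 fold change 0.99, adjusted p = 0.198), with DESeq2 (adjusted p = 0.285) or without mouse 9 or mouse 10 (edgeR adjusted p up to 0.0941).
Neighbours in this order that did not differ by the test were EoE and control for Sprr3, and control and ESCC for Sprr1b.

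The composition of the 4 genes in ESCC mice 17F and 17M differed from that of every other mouse, which was not tested. Sprr3 gave 58.3% of their joint UMIs in mouse 8M, 11.8% in 17F and 8.78% in 17M, against 57.6% to 75.0% in the EoE mice and 71.4% or more in controls. Sprr2d gave 0.461%, 58.4% and 67.5% in the 3 ESCC mice. Sprr1b was nearly as abundant as Sprr1a in each ESCC mouse (20.5% against 20.7% in 8M, 14.3% against 15.4% in 17F and 11.2% against 12.5% in 17M). In control mouse 1, the control with the highest share of Sprr1b, it was 8.59% against 11.1% for Sprr1a, and in control mouse 2 both were 5.08%, at 3 UMIs each.

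**Figure D4:**
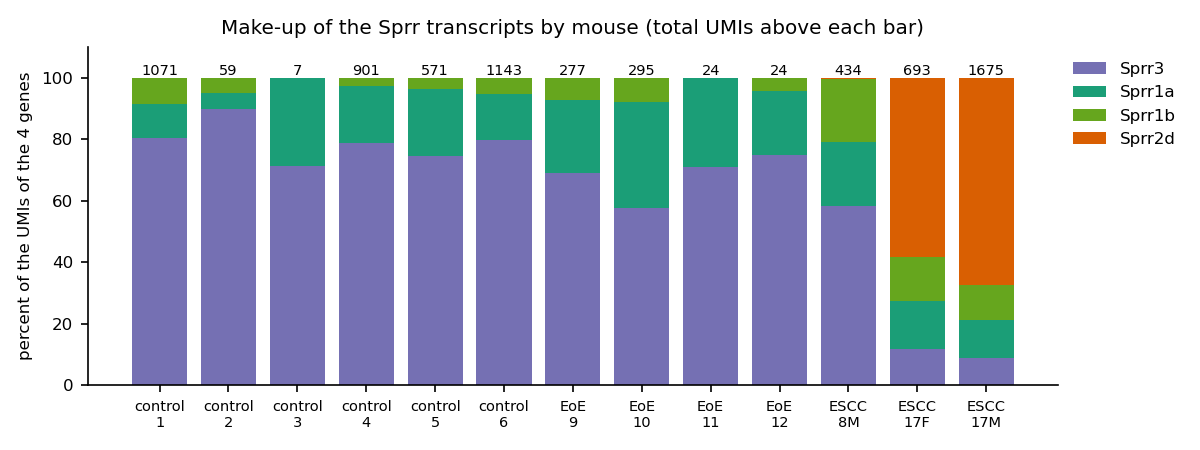
Percent of the joint UMIs of the 4 genes that each gene took in each of the 13 mice, with the total UMIs above each bar. Sprr3 made up most of every control and EoE bar and of mouse 8M, and Sprr2d took 58.4% and 67.5% in mice 17F and 17M.

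Within the cells above the strip, Sprr3 was lower in ESCC than in controls, Sprr1a and Sprr1b did not pass the test and Sprr2d, at 6.99, 998 and 2237 CPM in mice 8M, 17F and 17M, did not pass the filter on low counts. Sprr3 stood at 818, 272 and 285 CPM of the class in mice 8M, 17F and 17M, against 3436 or more in 4 controls and 851 and 31.6 in mice 2 and 3. All ESCC mice lay below 5 of the 6 controls, and the log2 fold change was -2.56 ± 0.59 (SE; edgeR adjusted p = 0.000756), where 28.9% of 3237 genes passed, 12.8% as lower in ESCC. With DESeq2 its adjusted p was 0.0525. As in EoE, a shift between earlier and later cells of the class cannot be told apart from a change per cell.
Sprr1a gave -0.77 ± 0.44 (SE; edgeR adjusted p = 0.192), with 254 to 479 CPM in ESCC. Sprr1b gave 0.69 ± 0.36 (SE; edgeR adjusted p = 0.156), with 289.6 to 420.4 CPM in ESCC, and passed without control mouse 1 or ESCC mouse 8M (log2 fold changes from 0.49 to 1.10 over the mice left out). EoE against ESCC within the class gave 2.15 ± 0.50 for Sprr1a (SE; edgeR adjusted p = 0.000723) and 2.86 ± 0.63 for Sprr3 (0.000319), against 0.24 ± 0.50 for Sprr1b (0.726); 42% of the genes passed, 13% as higher in EoE. With DESeq2 the adjusted p of Sprr1a in this comparison was 0.113.
No member passed the filter on low counts among basal or suprabasal cells, so that none was tested there, where 31% of 3802 and 34% of 1155 genes passed between ESCC and control. The class above the strip held 17.5% of all ESCC UMIs and 75.4% of those of Sprr1a, 81.6% of Sprr1b, 65.7% of Sprr2d and 83.6% of Sprr3. Basal ESCC cells, with 67.6% of all UMIs, held 18.4% of the Sprr2d UMIs and from 11.7% to 12.9% of those of the other 3 genes. Basal control cells, with 44.9%, held from 0.342% to 1.28% of the latter. The pooled basal level of Sprr3 was nonetheless lower in ESCC, at 18.0 CPM against 48.5 CPM in controls. Control mouse 4 alone held 26 of the 38 control UMIs (144 CPM). The other controls stood at 7.63 to 57.6 CPM and the ESCC mice at 4.06 to 29.6 CPM, so that these ranges overlapped. Sprr1a stood at 15.1 against 2.55 CPM and Sprr1b at 12.8 against 1.28 CPM. Thinned to 500 UMIs, 1.13%, 0.282% and 0.659% of basal ESCC cells had a UMI of Sprr3, Sprr1a and Sprr1b. In basal control cells these shares were 3.14%, 0.273% and 0.137%. Before thinning, 22 of the 33 basal control cells with a Sprr3 UMI came from mouse 4. After thinning to 500 UMIs, 25.3% of ESCC cells above the strip had a Sprr2d UMI (42.4% unthinned) against 3.39% of basal cells, with median depths of 4194 and 2928 UMIs.

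In mice 17F and 17M, most UMIs of Sprr1a, Sprr1b and Sprr2d lay in the cluster with the most Krt16, a keratin of wounded and hyperproliferative epithelium, and those of Sprr3 depended on the definition and on 1 cell. ESCC cells were clustered alone, without Sprr genes, into 10 clusters. Cluster 9 had the highest Krt16 level (241 cells, led by Krt16, Rnase2b, Krt6b, Serpinb3a and S100a9), with 2, 79 and 160 cells in mice 8M, 17F and 17M. It is called the Krt16 cluster here, and by its Krt5 and Krtdap levels it was suprabasal, with 55.7% and 45% of its cells in 17F and 17M classed above the strip one by one. Over all cells Krt16 stood at 80.9, 1322 and 2046 CPM in mice 8M, 17F and 17M, at 3.69 CPM or less in controls and at 0 in EoE.
In mouse 17F the cluster held 18.9% of all UMIs, but 79.8% of those of Sprr2d, 86.0% of Sprr1a, 84.8% of Sprr1b and 89.0% of Sprr3. In mouse 17M it held 27.5% of all UMIs, but 79.0%, 81.9%, 81.8% and 73.5% of theirs. In 17F, 1 cell held 67 of the mouse's 82 Sprr3 UMIs, and without it the cluster held 40% of Sprr3. Most transcripts of Sprr1a, Sprr1b and Sprr2d in both mice, and of Sprr3 in 17M, thus lay in this cluster, which is a description with no test.
Sprr2d was at 981 CPM inside and 58.1 CPM outside the cluster in 17F, and at 1543 and 156 CPM in 17M. Sprr1a was at 279 and 10.6 CPM in 17F and at 297 and 24.9 CPM in 17M. Sprr1b was at 255 and 10.6 CPM, and at 264 and 22.3 CPM.
Sprr3 was at 222 and 6.38 CPM in 17F and at 187 and 25.6 CPM in 17M. Without that 1 cell of 17F, Sprr3 stood at 18.5 CPM inside the cluster. All 4 genes were thus higher inside than outside in both mice, and for Sprr3 in 17F this rests mainly on a single cell. These levels of Sprr3 lay within the range of control cluster 4 over the 6 mice (0 to 467 CPM, pooled 222 CPM) and below those of control cluster 5 in mice 1, 4, 5 and 6.
Defined instead as the 19.8% of ESCC cells with a Krt16 UMI after thinning to 500 UMIs, the Krt16 cells held 72.5% of the Sprr2d UMIs of all 3 mice, 62.5% of Sprr1a, 64.9% of Sprr1b and 27.1% of Sprr3. Pooled over the 3 mice, the Krt16 cluster held 79.1%, 64.9%, 63.2% and 37.6%. Mouse 8M held 253 of the 482 ESCC UMIs of Sprr3 and had 2 cells in the cluster. In mouse 17M alone, 8 thinned Sprr3 UMIs lay in cells with a Krt16 UMI and 14 in cells without, so that by this definition most of its Sprr3 lay outside the Krt16 cells.

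In mouse 8M, Sprr1a, Sprr1b and Sprr3 were carried by other cells. Cluster 10 (149 cells, 98 of them from 8M) was led by Aldh1a7, Krt1, Krt4, Krt23 and Ly6g6c, with Krt10 and Krt13 among its 10 leading genes. Krt4 and Krt13 are the keratin pair of normal suprabasal esophagus, and Krt1 and Krt10 that of the epidermis. In 8M it held 35.3% of the UMIs of the mouse, but 90.0% of Sprr1a, 98.9% of Sprr1b and 94.5% of Sprr3. Sprr3 stood there at 546 CPM in 8M, 31.6 CPM in 17F and 0 CPM in 17M. The same cluster was thus low in Sprr3 in the other mice, with 32 and 19 cells, and a cluster mostly of 1 mouse may be that mouse and not a cell type.

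**Figure D5:**
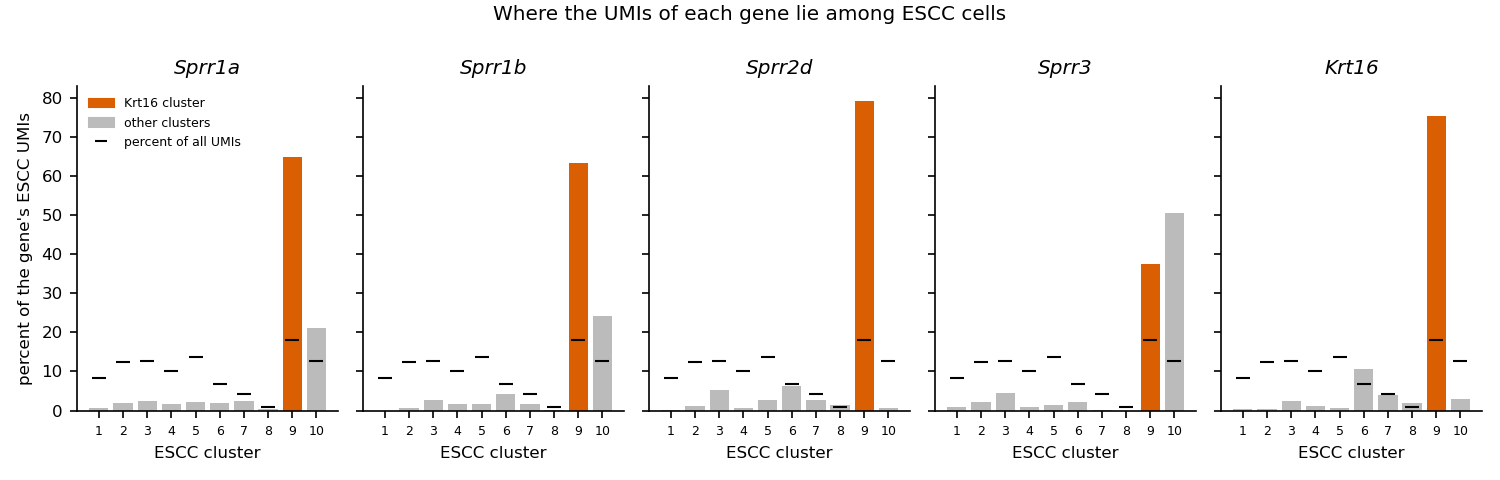
Percent of the ESCC UMIs of each gene, and of Krt16, that lay in each of the 10 ESCC clusters (bars, all 3 mice pooled), with the percent of all UMIs as a dash. The Krt16 cluster (9) held 79.1% of Sprr2d and 75.5% of Krt16, and cluster 10 held 50.4% of Sprr3.

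Sprr2d was seen together with the other genes in part of the cells of the Krt16 cluster. After thinning to 500 UMIs, 73 of its 241 cells had a Sprr2d UMI, 23 a Sprr1a UMI, 27 a Sprr1b UMI and 10 a Sprr3 UMI. Of the Sprr2d cells, 17.8% had a Sprr1a UMI, 17.8% a Sprr1b UMI and 8.22% a Sprr3 UMI, against 5.95%, 8.33% and 2.38% of the cells without Sprr2d. The shares were thus higher in cells with Sprr2d for each of the other 3 genes. In turn, 56.5% of the Sprr1a cells, 48.1% of the Sprr1b cells and 60% of the Sprr3 cells had a Sprr2d UMI, against 27.5%, 28.0% and 29.0% of the cells without each gene.
Sprr2d was also seen in cluster 6 (106 cells, none from 8M, led by Cstdc5, Krt17 and Stfa3), at 271 CPM. This was the basal cluster with the highest Krt16 level of those of over 20 cells (1759 CPM). In the other basal clusters of over 20 cells Sprr2d lay between 2.35 and 189 CPM. The part of free RNA in these basal levels was not tested.

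Age gave no difference that passed the test. Between old and young controls the log2 fold change was 0.13 ± 0.55 for Sprr1a (edgeR adjusted p = 1), -0.63 ± 0.66 for Sprr3 (1) and -1.48 ± 0.51 for Sprr1b (0.966). Of 6489 genes tested in this comparison, 0 passed in edgeR (0% called), 294 had an unadjusted p under 0.05 and 3 passed in DESeq2. Without a filter on low counts Sprr1b passed (log2 fold change -1.49, edgeR adjusted p = 0.00205). Old EoE mice had lower Sprr1a than young ones (700.2 and 239 CPM against 2014 and 2383), but the interaction of age and EoE in the fit gave -2.93 ± 1.15 (SE; edgeR adjusted p = 0.664), where 1 gene passed (0.0154%) and 477 had an unadjusted p under 0.05. Without the filter it passed (-2.92, edgeR adjusted p = 0.000241). Young mice were 6 to 8 weeks old in EoE and 3 to 4 months old in controls, so that the interaction does not compare equal ages.

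Of the genes that make up the same envelope, most fell with Sprr3 in ESCC, and they were divided in EoE. From a list of 29 envelope genes, 27 were in the files and 19 tested. In ESCC 15 were lower and 2 higher (Csta1 and S100a11), with a median log2 fold change of -1.92 against 0.01 over all genes, of which 16.8% were lower and 17.9% higher. In EoE 7 were higher, among them Cnfn, Lor and Ppl, and 7 lower, with a median of 0.30 against -0.75 over all genes, of which 9.46% were higher and 25.1% lower.
Cnfn (cornifelin, an envelope protein) gave 2.08 in EoE (edgeR adjusted p = 0.000392) and -3.11 in ESCC (3.3e-05). Ppl (periplakin, a scaffold of the envelope) gave 1.88 (3.3e-05) and -2.61 (1.3e-06). Both moved as Sprr1a did, whereas Tgm3, a transglutaminase that cross-links the proteins, gave -0.25 in EoE (edgeR adjusted p = 0.593) and fell in ESCC (-1.50, 0.00134).
Over all cells Krtdap gave 0.07 in EoE (edgeR adjusted p = 0.850) and -1.08 in ESCC (0.00515). By class it was higher in ESCC among basal (1.81, edgeR adjusted p = 0.00556) and suprabasal cells (0.66, 0.0408), gave -0.46 above the strip (0.220), and was lower in EoE above the strip (-0.87, 0.00776). Krtdap was 1 of the 2 genes that set these classes, so that its values by class are not independent of them and no conclusion is drawn from them. Over all cells Dmkn, a secreted protein of keratinocytes, was lower in both (-0.88 and -0.84, edgeR adjusted p = 0.0122 and 0.0130), and Anxa1, an annexin, was lower in EoE (-1.70, 1.7e-05) and gave 0.32 in ESCC (0.270). Among basal cells Dmkn was higher in ESCC (0.79, edgeR adjusted p = 0.00375). Anxa1 was higher in ESCC within the basal, suprabasal and above-strip classes (0.50, 0.55 and 0.76, edgeR adjusted p = 0.0391, 0.0447 and 0.0169). Above the strip Tgm3 was lower in EoE (-0.97, edgeR adjusted p = 0.0165) and gave -0.63 in ESCC (0.144). Cnfn and Ppl kept their directions there. Cnfn gave 1.21 in EoE (edgeR adjusted p = 0.00671) and -2.12 in ESCC (0.000145), and Ppl 1.17 (0.00126) and -1.83 (1.98e-05).

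Among 25 transcription factors known to act on squamous genes, 22 were tested. In EoE 2 were higher (Klf4 and Ehf) and 9 lower, and in ESCC 11 were lower, with medians of -0.79 and -0.59 against -0.75 and 0.01 over all genes, of which 25.1% were lower in EoE and 16.8% in ESCC. Klf4, a factor of terminal differentiation, gave 2.12 in EoE (edgeR adjusted p = 1e-07) and -0.35 in ESCC (0.334). Some AP-1 genes of the list went the other way from Sprr1a in EoE: Fos gave -1.12, Jun -2.04, Junb -2.79 and Fosb -1.86 (edgeR adjusted p of 0.00138 or less). In ESCC they gave -1.56, -0.79, -1.04 and -1.94 (edgeR adjusted p of 0.0135 or less). The other AP-1 genes of the list, Fosl1, Fosl2 and Jund, were not among the genes called in EoE or ESCC. Klf5, a factor of basal keratinocytes, was lower in both (-1.27 and -0.66).

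Among the other 11 Sprr genes in the files, most of those on the plus strand near Sprr2d were seen in ESCC mice 17F and 17M as well. ESCC held 255 UMIs of Sprr2b, 225 of Sprr2f, 231 of Sprr2h, 281 of Sprr2i and 75 of Sprr2e, against 3, 3, 6, 3 and 0 in controls. In each of these 5 genes mouse 8M was the lowest ESCC mouse, at 4.87 CPM or less. Of the 31-base words of the Sprr2b transcript end, 31.1% were shared, mostly with the Sprr2a genes, so that its count is less certain. In the others named here 9.46% or less were shared. Sprr2a3, whose transcript end is shared with Sprr2a1 and Sprr2a2 and whose counts are uncertain, stood at 143 CPM in ESCC, 153 CPM in controls and 56.7 CPM in EoE. Sprr2a3 and Sprr2j-ps, the 2 that were tested, did not pass over all cells in EoE or ESCC against controls (edgeR adjusted p of 0.158 or more). Within the class above the strip, Sprr2j-ps was higher in ESCC than in controls (log2 fold change 1.86, edgeR adjusted p = 0.000756) and Sprr2a3 gave 0.82 (0.0560). Sprr2a3 too was lowest in 8M among the ESCC mice (44.8, 212 and 171 CPM in 8M, 17F and 17M), but 17F and 17M were not apart from the controls (84.2 to 203 CPM). Sprr2d and the 5 neighbours were not tested in these fits.

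Over the 13 mice, the gene most like Sprr2d was Krt16, and no gene was among the 3 most like more than 1 of the 4 members. Mice of 3 conditions enter these correlations of log2 CPM, so that the condition is shared between the points, and they are given as a description. Among 5522 genes outside the family, Krt16 was the gene most like Sprr2d (Pearson r = 0.95), then Itga6 (0.85) and Serpine2 (0.81). Their rank correlations were 0.84, 0.50 and 0.62. Sprr2d held 1 UMI over all controls and 0 over EoE, and Krt16 held 3 and 0. Each r of Sprr2d thus rests on the ESCC mice against other mice that lay at the floor. The genes most like Sprr1a by Pearson r were Klk10, Slpi and Klk13 (0.95 each). For Sprr3 they were Endod1 (0.97), Tmprss11a and Lypd5 (0.96 each), and for Sprr1b Slc25a30, Nrf1 and Il1f8 (0.88 each).
Sprr1a and Sprr3 correlated with each other (r = 0.87) more than either did with Sprr1b (0.60 and 0.52). With the percent of cells above the strip, Sprr1a gave r = 0.69, Sprr3 0.72, Sprr1b -0.04 and Sprr2d -0.53. Over the 18 values by mouse and class of the controls, the genes most like the members were Hopx, Acer1 and Ada for Sprr1a, Mal2, Wfdc5 and Sptlc3 for Sprr1b, and Crct1, Defb4 and Ly6g6c for Sprr3 (r from 0.91 to 0.96).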

How the data were processed

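The deposited values are whole-number UMI counts per gene and cell from 22 inDrop libraries. Per the labels and methods, the authors extracted barcodes with UMI-tools 1.0.0, aligned reads with STAR 2.7.3 to GRCm38, assigned them with featureCounts and drew 1500 cells per condition. Doublets were marked with Scrublet (116 of 4500 cells, 2.58%) and left out only as an alternative. The UMIs of the cells of a mouse were added up, genes of low counts were removed by filterByExpr, and all 13 mice entered 1 quasi-likelihood fit with TMM scaling (edgeR 4.0.16 under R 4.3.3), whose p-values were adjusted by Benjamini-Hochberg over every gene tested and called under 0.05. DESeq2 1.42.0 served as an alternative. Cells were clustered in scanpy 1.11.5 (2000 variable genes, 50 components, 15 neighbors, Leiden resolution 1). A mouse entered a test within a class with at least 10 cells. On simulated data with 200 genes changed by a log2 fold change of 2, edgeR recovered 96 (48%) of them for EoE versus control (5632 genes) and 189 (94.5%) for ESCC versus control (5609 genes). The genes named are the 4 members, the other Sprr genes, the 6 most abundant tested genes of the envelope and regulator lists and the 3 genes most like each member, plus the genes that lead a cluster and those called in a direction with 2 or fewer genes, which were chosen after their values were seen. The members and lists were chosen with earlier results of these data known. The labels name no batch, and p-values measure the spread between these mice. The result of 1 gene of the regulator list is not reported here.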

Additional observations from a re-analysis of the deposited data

How the results depend on the processing

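No paired analysis was possible because the groups share no mouse and no replicate number. Over the alternatives, 508 values of the 4 genes kept their direction and side of the threshold or stayed within the spread, 20 lost the call, 16 gained it, 12 changed sign and 24 moved, and the cause was not tested. The analyses with control cells thinned to EoE depths, with each barcode counted once, of Sprr2d without mouse 8M, without the filter within a class and with DESeq2 without the filter were chosen after seeing the data. The values that follow are log2 fold changes with adjusted p-values (edgeR unless named). For EoE versus control, all deposited cells gave 1.12 for Sprr1a (0.103), 0.65 for Sprr1b (0.399) and -0.029 for Sprr3 (0.972). DESeq2 gave 1.98 (0.0682; 0.0779 without the filter) for Sprr1a and 1.46 (0.254; 0.272) for Sprr1b. Sprr3 passed without the filter on low counts (0.78, 0.0108), with each mouse thinned to the shallowest (1.30, 0.0186), with control cells thinned to EoE depths (1.46, 0.0126) and with only the groups compared in the fit (1.25, 0.0364). For ESCC versus control, DESeq2 gave -1.54 for Sprr1a (0.214; 0.261 without the filter). For EoE versus ESCC, Sprr1b gave 0.99 with all deposited cells (0.198) and 1.52 with DESeq2 (0.285; 0.310 without the filter). Without the filter, Sprr1b passed between old and young controls (-1.49, 0.00205) and Sprr1a in the test of age by EoE (-2.92, 0.000241). Sprr2d in ESCC versus control, fitted only without the filter or without mouse 8M, gave 8.48, 8.34 with DESeq2 and 8.97 without 8M. These sizes depend on the prior count because controls held 1 UMI. No p-value is given for them, because Sprr2d entered these fits through its counts in ESCC alone. Mouse 8M was the ESCC mouse at the level of the controls.

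Within the class above the strip, DESeq2 gave 1.30 for Sprr1a in EoE versus control (0.213), -2.40 for Sprr3 in ESCC versus control (0.0525), and 1.82 for Sprr1a (0.113) and -0.26 for Sprr1b in EoE versus ESCC. Without the filter, Sprr3 in EoE versus control gave -0.025, Sprr1b in ESCC versus control 0.74 (0.0361) and Sprr1b in EoE versus ESCC -0.11. DESeq2 size factors moved the median of all genes in EoE versus control from -0.75 to -0.97 and in EoE versus ESCC from -0.81 to -1.15, and the share of higher calls in ESCC versus control from 51.6% to 63.3% (55.8% to 66.4% within the class). With all deposited cells, higher calls in EoE versus control rose from 27.4% to 42.2% of 3031 and in EoE versus ESCC from 28.0% to 41.8%. Thinned to the shallowest mouse, 107, 77 and 128 genes passed in EoE versus control, ESCC versus control and EoE versus ESCC, in place of 2029, 2032 and 2440. With control cells thinned to EoE depths 1213 passed in ESCC versus control, and with only the groups compared 661 in EoE versus ESCC. Without EoE mouse 10, 1136 passed in EoE versus control and 1577 in EoE versus ESCC. Between old and young controls, where 0 genes passed in edgeR, 18 passed without the filter, 3 with DESeq2, 5 with only the groups compared, and 9, 3 and 4 without ESCC mouse 8M, 17F or 17M. In the test of age by EoE, where 1 passed, 5 passed without the filter, 2 without ESCC mouse 8M, and 0 after thinning or without EoE mouse 12.

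With each mouse left out in turn, EoE versus control ranged from 1.84 to 2.60 for Sprr1a, from 1.37 to 2.25 for Sprr1b and from 0.57 to 1.45 for Sprr3, which passed without control mouse 6 or ESCC mouse 8M. ESCC versus control ranged from -1.997 to -1.51, from -0.58 to 0.071 and from -4.47 to -3.20. EoE versus ESCC ranged from 3.62 to 4.37, from 1.78 to 2.52 and from 4.15 to 5.48. Sprr1b lost its call without EoE mouse 9 or 10 in both. Old versus young controls ranged from -0.38 to 0.90, from -1.92 to -1.03 and from -1.14 to -0.09, and the test of age by EoE from -3.70 to -2.34, from -9.64 to -2.35 and from -2.29 to -1.25. Within the class, EoE versus control ranged from 0.90 to 1.73 (Sprr1a, lost without EoE mouse 9 or 10), from 0.56 to 1.44 (Sprr1b, gained without control mouse 1 or EoE mouse 12) and from -0.16 to 0.65 (Sprr3). ESCC versus control ranged from -1.12 to -0.54, from 0.49 to 1.10 (Sprr1b, gained without control mouse 1 or ESCC mouse 8M) and from -3.12 to -2.25, and EoE versus ESCC from 1.66 to 2.52, from -0.15 to 0.59 and from 2.39 to 3.37.

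Shares of cells above the strip with a UMI depend on depth. Unthinned and thinned to 250 and 1000 UMIs, controls gave 25.8%, 10.6% and 24.8% for Sprr1a and 13.8%, 3.98% and 11.5% for Sprr1b, and 38.1% unthinned and 25.4% at 250 UMIs for Sprr3. ESCC gave 34.8%, 7.07% and 18.7% for Sprr1a, 35.9%, 6.06% and 21.2% for Sprr1b and 42.4%, 17.2% and 32.3% for Sprr2d, and 27.8% unthinned for Sprr3. EoE gave 65.2%, 47.8% and 78.3% for Sprr1a, Sprr1b and Sprr3 at 1000 UMIs, where 23 cells remained. At 250 UMIs it gave 21.2%, 3.53% and 35.3%. By Krt16 UMIs in place of the cluster, 72.5% of Sprr2d and 27.1% of Sprr3 lay in Krt16 cells. The depth of the EoE cells limits what can be said of Sprr2d there.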
